A study of Mus musculus with 5 samples.

Results

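The chemokine ligand and receptor genes were examined in H3K27me3 peak lists from mouse embryonic fibroblasts (MEFs). Members were all protein-coding genes on the 19 autosomes of GENCODE vM1 (mm9) whose symbol consists of Ccl, Cxcl, Ccr or Cxcr, a number and at most a letter a or b. This rule gave 51 of 21418 autosomal protein-coding genes, with 50 symbols, because Ccl25 was listed under a pair of gene identifiers whose 5′ ends were 0.02 kb apart. The rule used names only, and no measured value entered it. Cxcr3 lies on chromosome X and stayed outside it, as did Cxcl11, which this annotation does not class as protein-coding.

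H3K27me3 is the histone mark placed by Polycomb Repressive Complex 2 (PRC2). Its positions were mapped by ChIP-Seq, in which MNase-digested chromatin is precipitated with an antibody to the mark and sequenced. All MEF lines were derived from an E13.5 embryo with loxP sites in Eed, which encodes a PRC2 subunit. The 3 lines used here stably expressed a lentiviral transgene, driven by the EF1a promoter, for H3.3 K27R, H3.3 K27M or human EZHIP. K27M (lysine to methionine) and EZHIP inhibit PRC2, and K27R (lysine to arginine at the same residue) was used here as the reference. Each line had 1 library and 1 deposited list of peak positions with no height or read count, so that depth was unknown and no difference could be tested against replicate spread. The libraries of the parental control and of EEDnull, a single clone in which Cre had removed Eed, were not analysed here. A list records where enrichment was called. The absence of a peak is therefore not a measurement of zero H3K27me3, and a wider peak is not a measurement of more of it.

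Chemokines are small secreted proteins that guide migrating cells along gradients, and they act through G protein-coupled receptors on the cell surface. Inflammatory chemokines are induced in fibroblasts, macrophages and other cells by infection or injury, whereas homeostatic chemokines position lymphocytes and progenitor cells in unchallenged tissue. Many of the genes arose by tandem duplication and lie side by side, so that neighbouring members can share 1 H3K27me3 domain. The 51 members fell into 25 loci when start sites up to 500 kb apart were joined, and 37 of them lay in 11 clusters of at least 2 members. A gene family of this kind is not a set of 51 independent observations, and the exact binomial (Clopper-Pearson) 95% intervals below cover counting error only.

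Promoter sequences of the members on which the results turn are shown first. They are the 250 bases before the annotated 5′ end of the gene in mm9, written 5′ to 3′ on the strand of the gene, with every CG dinucleotide in capitals. The first set holds the members whose start site lay in a peak in all 3 lists. Cxcr4 had 19 CG, Cxcl14 had 16, Ccr9 had 15 and Ccr6 had 3.
Cxcr4 (chr1:130488871-130489120, minus strand): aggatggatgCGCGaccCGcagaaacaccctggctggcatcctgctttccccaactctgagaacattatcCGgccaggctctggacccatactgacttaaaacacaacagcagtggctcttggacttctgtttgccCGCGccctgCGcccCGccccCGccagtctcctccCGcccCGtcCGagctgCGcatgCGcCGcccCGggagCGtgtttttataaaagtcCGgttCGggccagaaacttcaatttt
Cxcl14 (chr13:56397913-56398162, minus strand): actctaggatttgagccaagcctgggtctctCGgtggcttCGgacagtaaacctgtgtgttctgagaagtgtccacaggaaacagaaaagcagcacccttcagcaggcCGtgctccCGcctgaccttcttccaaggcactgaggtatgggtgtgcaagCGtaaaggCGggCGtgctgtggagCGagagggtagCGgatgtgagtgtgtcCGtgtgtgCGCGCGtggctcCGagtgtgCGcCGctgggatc
Ccr9 (chr9:123587307-123587556, plus strand): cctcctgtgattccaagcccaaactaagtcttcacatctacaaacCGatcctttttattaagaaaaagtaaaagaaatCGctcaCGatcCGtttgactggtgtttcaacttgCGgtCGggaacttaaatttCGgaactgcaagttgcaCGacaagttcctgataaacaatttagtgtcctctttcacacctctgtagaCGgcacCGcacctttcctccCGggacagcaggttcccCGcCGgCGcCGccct
Ccr6 (chr17:8428827-8429076, plus strand): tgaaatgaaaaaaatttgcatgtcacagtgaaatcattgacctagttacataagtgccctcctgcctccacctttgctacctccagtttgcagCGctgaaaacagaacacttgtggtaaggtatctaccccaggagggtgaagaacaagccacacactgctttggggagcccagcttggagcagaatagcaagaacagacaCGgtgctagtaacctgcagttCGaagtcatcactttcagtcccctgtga

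The second set holds 3 members whose start site lay in a K27R peak and in neither inhibitor list. Cxcl12 had 14 CG, Ccr7 had 3 and Cxcl13 had 1, against a median of 3 over the 51 members.
Cxcl12 (chr6:117118303-117118552, plus strand): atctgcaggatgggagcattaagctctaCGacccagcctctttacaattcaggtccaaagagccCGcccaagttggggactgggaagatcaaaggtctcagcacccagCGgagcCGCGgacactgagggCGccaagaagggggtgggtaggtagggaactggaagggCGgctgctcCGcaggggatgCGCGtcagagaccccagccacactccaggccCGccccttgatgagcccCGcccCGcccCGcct
Ccr7 (chr11:99016392-99016641, minus strand): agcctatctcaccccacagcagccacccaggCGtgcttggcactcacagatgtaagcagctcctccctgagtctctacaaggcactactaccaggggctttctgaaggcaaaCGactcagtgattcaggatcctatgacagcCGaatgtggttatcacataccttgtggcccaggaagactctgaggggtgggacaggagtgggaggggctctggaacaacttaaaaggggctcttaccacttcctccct
Cxcl13 (chr5:96385695-96385944, plus strand): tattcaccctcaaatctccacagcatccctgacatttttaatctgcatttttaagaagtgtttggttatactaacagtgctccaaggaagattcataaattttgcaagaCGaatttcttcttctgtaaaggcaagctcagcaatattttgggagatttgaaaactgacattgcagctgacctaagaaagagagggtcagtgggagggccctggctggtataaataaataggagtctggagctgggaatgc

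The start site, taken as the 5′ end of the gene, lay in a K27R peak for 17 of 51 members (33.3%, 95% interval 20.8 to 47.9%). The same was true of 28.2% of all autosomal protein-coding genes, which lay inside that interval. In K27M cells 4 members had a start site in a peak (7.84%, interval 2.18 to 18.9%), against 8.94% of all genes. In EZHIP cells the number was also 4 (7.84%, interval 2.18 to 18.9%), against 7.96% of all genes. In each list the share of members was near that of genes at large.

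The same 4 genes, Cxcr4, Cxcl14, Ccr6 and Ccr9, made up the K27M and the EZHIP sets, and all of them also lay in K27R peaks. Both lists together also held 4 members, against 10.1% of all genes in either list and 6.81% in both. No member was in only 1 of the inhibitor lists, against 3.29% of all genes. Of the 17 members in K27R peaks, 4 kept a peak in both lists (23.5%, interval 6.81 to 49.9%). Over the 6041 genes in K27R peaks, 31.6% kept one in K27M, 28.2% kept one in EZHIP and 24.1% kept one in both. The remaining 13 of the 51 members lay in a K27R peak and in neither inhibitor list, against 3887 of all 21418 genes (18.1%). The other 34 of the 51 members lay in no peak of any list. These were also all the members with a start site outside K27R peaks, as 15377 of all 21418 genes had.

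**Figure D1:**
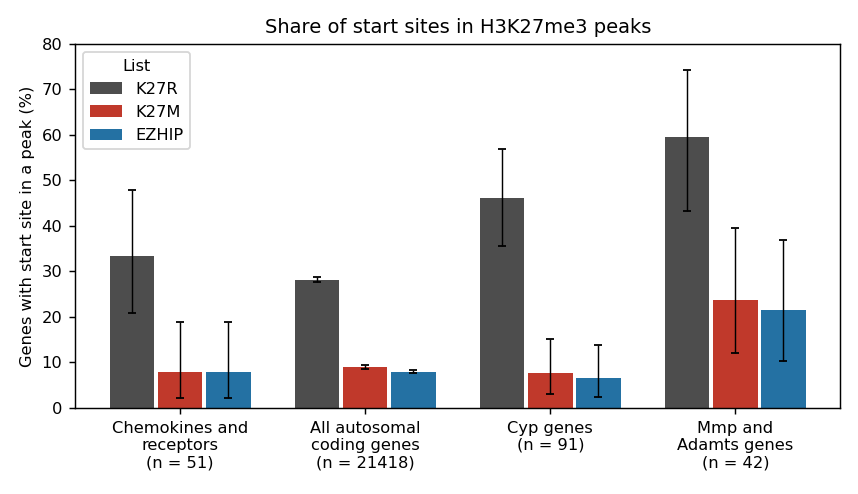
Share of genes whose start site lay in an H3K27me3 peak (y axis, percent) for the chemokine and receptor genes, all autosomal protein-coding genes, the Cyp genes and the Mmp and Adamts genes, in the K27R, K27M and EZHIP lists. Error bars are exact binomial 95% intervals for counting error over genes, with 1 library per list. The bars of the chemokine and receptor genes (33.3%, 7.84% and 7.84%) stood close to those of all genes (28.2%, 8.94% and 7.96%).

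A pair of other gene families was counted in the same lists. The Cyp genes encode cytochrome P450 enzymes and also lie in tandem clusters. Of 91 Cyp genes, 42 had a start site in K27R peaks (46.2%), 7 in K27M (7.69%) and 6 in EZHIP (6.59%). The Mmp and Adamts genes encode secreted proteases of the extracellular matrix. Of these 42 genes, 25 lay in K27R peaks (59.5%), 10 in K27M (23.8%) and 9 in EZHIP (21.4%). In every list the interval of the chemokine and receptor genes overlapped those of both families. In K27R the overlap with the Mmp and Adamts genes was narrow (20.8 to 47.9% against 43.3 to 74.4%). Such overlap does not show that shares were alike, and no difference between the families was tested.

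Counted over the gene body instead of the start site, 17 members touched a K27R peak (34.2% of all genes did), 4 touched a K27M peak (11.3% of all genes) and 5 touched an EZHIP peak (10.9% of all genes). The fifth gene in EZHIP was Ccl1. Of the 17 members in K27R, 14 had the whole body covered, and 3 had under 50% covered, namely Cxcl12, Cxcl16 and Ccr9.

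By role, 10 of 35 ligand genes had a start site in a K27R peak (28.6%, interval 14.6 to 46.3%), a share near the 28.2% of all genes, and 1 kept a peak with the inhibitors. Of 16 receptor genes, 7 had a start site in a K27R peak (43.8%, interval 19.8 to 70.1%) and 3 kept one. The intervals overlapped and both held the share of all genes, and no difference between the roles was tested.

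Of the inducible ligands, which recruit leukocytes during inflammation, 4 of 21 lay in K27R peaks (19%, interval 5.45 to 41.9%, against 28.2% of all genes). None had a start site in a K27M or EZHIP peak, where 8.94% and 7.96% of all genes did. The 4 were Ccl1, a ligand of Ccr8, Ccl12, a ligand of Ccr2, and Ccl24 and Ccl26 of the eotaxin group, which attracts eosinophils. The other 17 included Ccl2 and Ccl7, which attract monocytes, Ccl5, which attracts T cells, Cxcl1, Cxcl2 and Cxcl5, which attract neutrophils, and the interferon-induced Cxcl9 and Cxcl10.

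The homeostatic ligands lay in K27R peaks in 4 of 9 entries (44.4%, interval 13.7 to 78.8%, against 28.2% of all genes). These were Ccl21a, which guides dendritic cells and naive T cells into lymph nodes, Cxcl13, which organizes B cell follicles, Cxcl12, the ligand of Cxcr4 that retains progenitors in bone marrow, and Cxcl14, a chemokine of epithelial tissue. Of these, Cxcl14 was kept in both inhibitor lists. Ligands of mixed use lay in K27R peaks in 2 of 5 cases (40%, interval 5.27 to 85.3%). They were Ccl22, a ligand of Ccr4, and Cxcl16, the transmembrane ligand of Cxcr6, and neither was kept. Both intervals held the share of all genes. The role lists put Ccl27b among the mixed ligands and its near-identical copy Ccl27a among the homeostatic ones. With both taken as homeostatic, the counts were 4 of 10 and 2 of 4.

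Of the 10 CC receptors, 5 lay in K27R peaks (50%, interval 18.7 to 81.3%, against 28.2% of all genes). They were Ccr4 and Ccr8, found on type 2 helper and regulatory T cells, Ccr6, the receptor for Ccl20, Ccr7, the receptor for Ccl19 and Ccl21, and Ccr9, the gut-homing receptor for Ccl25. Ccr6 and Ccr9 were kept. Of the 6 CXC receptors, 2 lay in K27R peaks (33.3%, interval 4.33 to 77.7%). They were Cxcr2, a neutrophil receptor, and Cxcr4, and Cxcr4 was kept. Both intervals held the share of all genes.

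The K27R domains over these start sites numbered 16, since Ccl24 and Ccl26 lay in the same one. Their median width was 79.9 kb, with a range of 3.0 to 215 kb, against a median of 51.8 kb over the 3437 autosomal domains that held any coding start site. The 5 widest lay over Cxcl14 (215 kb), Ccl1 (189.6 kb), Ccl21a (188 kb), Cxcr4 (142 kb) and Ccr9 (102 kb). The 3 narrowest lay over Cxcl16 (3.0 kb), Cxcl12 (9.2 kb) and Ccl12 (18.0 kb).

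**Figure D2:**
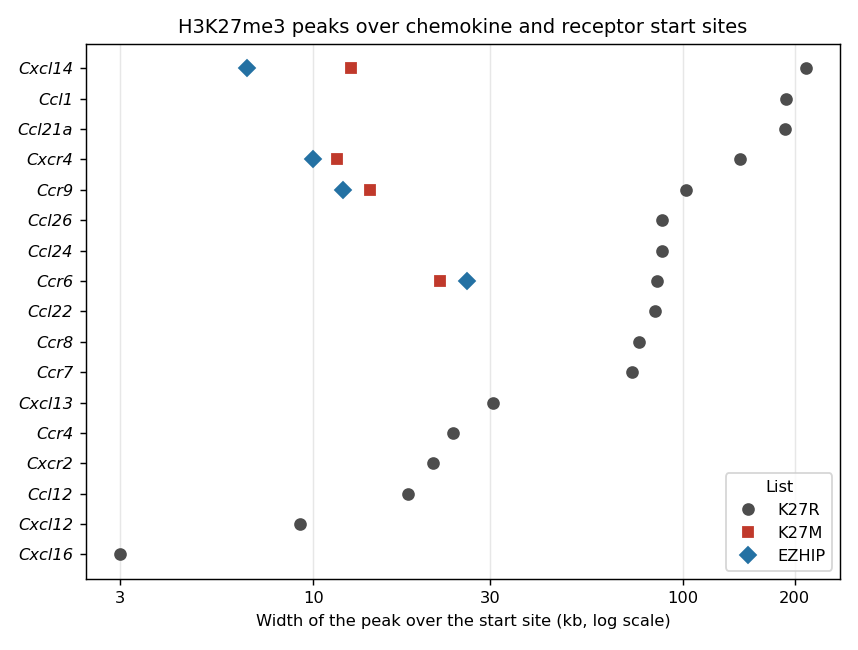
Width of the peak over the start site (x axis, kb, log scale) for the 17 members in K27R peaks, ordered by K27R width, with 1 point per list that had a peak there. K27R widths ran from 3.0 kb at Cxcl16 to 215 kb at Cxcl14, and only Cxcl14, Cxcr4, Ccr9 and Ccr6 had points for K27M and EZHIP.

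Cxcr4 encodes the receptor for Cxcl12 and acts in the homing of blood progenitors. The gene lies on chromosome 1 from 130484776 to 130488870 on the minus strand (mm9, ENSMUSG00000045382.6). The K27R domain ran from 130410801 to 130552800, a width of 142 kb that held no other coding start site. The K27M peak was 11.6 kb wide, from 130484001 to 130495600, and reached from 6.73 kb upstream of the start to 4.87 kb downstream. The EZHIP peak was 10.0 kb wide, from 130484201 to 130494200, and lay wholly inside the K27M peak. Both covered the whole gene. The K27M peak had 8.17% and the EZHIP peak 7.04% of the width of the K27R domain.

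Cxcl14 lies on chromosome 13 from 56390008 to 56397912 on the minus strand (ENSMUSG00000021508.9). Its K27R domain of 215 kb, from 56239801 to 56454800, also held the start sites of Neurog1, a neural transcription factor, and Tifab. Over the start site the K27M peak spanned 12.6 kb (56389001 to 56401600) and the EZHIP peak 6.6 kb (56393401 to 56400000), the latter inside the former. Relative to the K27R width, the peak over the start was the narrowest of the 4 genes, at 5.86% in K27M and 3.07% in EZHIP. The K27M peak was 1.91-fold as wide as the EZHIP peak, and the gene body was covered fully in K27M and to 57.1% in EZHIP. The domain also held residual peaks away from the start of Cxcl14. With the peaks at Cxcl14 counted, it held 4 K27M and 8 EZHIP peaks, which covered 54.1% and 41.0% of it. These totals include the peak over the start, so they cannot be smaller than its share.

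Ccr6 lies on chromosome 17 from 8429077 to 8449992 on the plus strand (ENSMUSG00000040899.6), and all 4 of its coding transcripts started inside the peaks of each list. The K27R domain spanned 85.0 kb, from 8394201 to 8479200, and also held the start of Brp44l. It held 3 K27M and 3 EZHIP peaks, which covered 39.1% and 52.5% of it. Over the start of Ccr6, the K27M peak spanned 22.0 kb (8423201 to 8445200) and the EZHIP peak 26 kb (8423201 to 8449200). Both began at the same bin 5.88 kb upstream of the start, and the EZHIP peak reached further into the gene, to 20.1 kb downstream against 16.1 kb. Ccr6 was therefore the only one of the 4 with a wider peak in EZHIP than in K27M, a pattern found in 19.8% of the 1458 genes kept in both lists.

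The residual peaks over the start of Ccr6 were wide for their lists. They were wider than 85.5% of autosomal K27M peaks and 95.8% of autosomal EZHIP peaks. For the other kept genes these values were 75.3% and 84.8% (Ccr9), 68.6% and 80% (Cxcr4), and 71.3% and 65.7% (Cxcl14). The Ccr6 peaks had 25.9% and 30.6% of the K27R width. Over the 1458 genes kept in both lists the median shares were 13.5% and 8.96%, with median peak widths of 132.4 kb (K27R), 13.8 kb (K27M) and 9.1 kb (EZHIP).

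Ccr9 lies on chromosome 9 from 123587557 to 123691089 on the plus strand (ENSMUSG00000029530.8), and its call rests on 1 of 4 coding transcripts. That transcript starts at 123587557, which is 0.446 kb from the start of Slc6a20a, an amino acid transporter gene on the opposite strand. The other 3 start between 123676329 and 123676347, outside every peak of every list. At the first start the K27R domain was 102 kb wide (123505001 to 123607000), the K27M peak 14.2 kb (123581201 to 123595400) and the EZHIP peak 12 kb (123581601 to 123593600). Each of these held the Slc6a20a start as well, so that marking of Ccr9 and of Slc6a20a cannot be told apart. The EZHIP list had a second peak of 4.6 kb within the gene, from 123632001 to 123636600. It lay outside the 102 kb domain, inside a separate K27R peak of 22.6 kb (123628401 to 123651000). With the peaks over the start counted, the 102 kb domain held 1 K27M and 2 EZHIP peaks. When every coding transcript had to start in a peak, a setting chosen after the data were examined, Ccr9 dropped out and the counts became 16 in K27R, 3 in K27M and 3 in EZHIP.

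**Figure D3:**
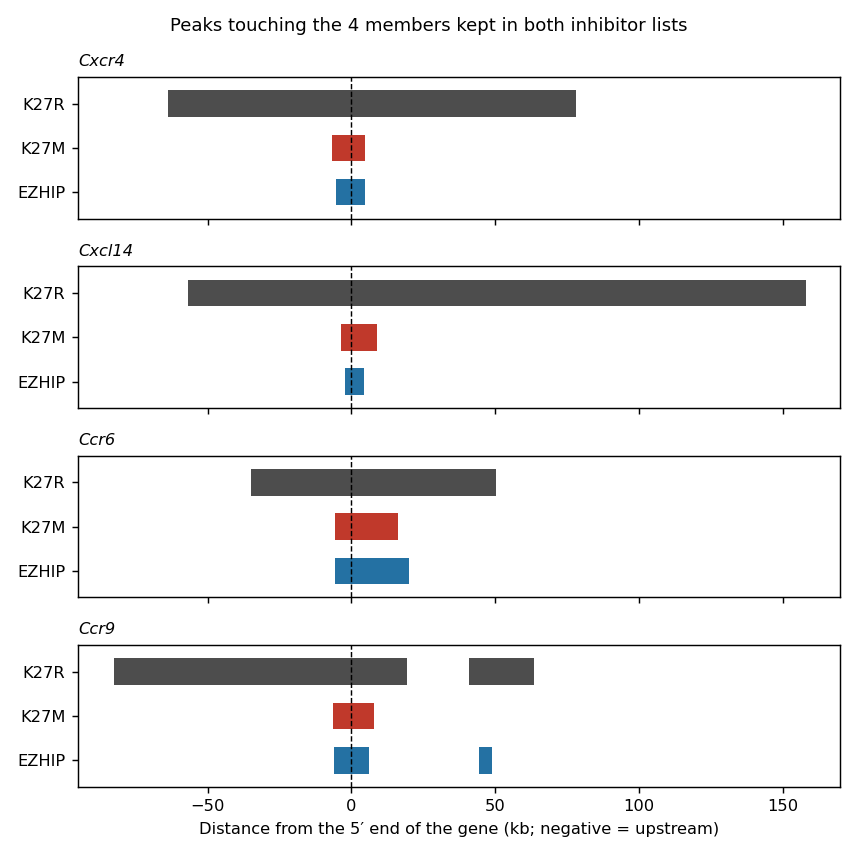
Peaks touching Cxcr4, Cxcl14, Ccr6 and Ccr9 in the K27R, K27M and EZHIP lists, drawn by distance from the 5′ end of the gene (x axis, kb, negative values upstream), with the dashed line at the 5′ end. Each bar is 1 peak of 1 library. At each gene an inhibitor peak of each list sat over the start inside a wider K27R domain. Ccr6 had the widest of these (22.0 kb with K27M, 26 kb with EZHIP). At Ccr9 a further EZHIP peak lay inside a separate K27R peak within the gene. Residual peaks of the domains that did not touch the named gene are not drawn.

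The member domains kept residual peaks away from the member start sites to different extents. Counting residual peaks anywhere in the domain, 7 of the 16 member domains had a K27M peak (43.8%, against 50.2% of the 3437 domains over any coding start), 8 had an EZHIP peak (50%, against 50.6%) and 8 had neither. At Ccl21a the domain kept 3 K27M and 3 EZHIP peaks. The nearest lay 76.5 kb from the start of Ccl21a in K27M and 104 kb in EZHIP, and among them were peaks over the start of N28178. In the domain of Ccl22, the K27M and EZHIP peaks lay over the start of Pllp, 45.3 kb and 47.3 kb away. The Ccr7 domain of 72.8 kb kept a peak in each list 31.4 kb and 29.8 kb from the start, over no coding start and no CpG island.

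Ccl1 differed between the inhibitor lists. It had no K27M peak anywhere in its domain of 189.6 kb on chromosome 11 (81950601 to 82140200), and an EZHIP peak of 8.8 kb, from 82039201 to 82048000, inside the annotated gene. The annotated gene spans 129 kb through 1 non-coding transcript that starts at 82119192, and its 3 coding transcripts start at 81993314 to 81993316. The peak lay 45.9 kb upstream of these coding starts and 71.2 kb from the 5′ end of the gene. With 1 library per line, the difference was not tested.

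No residual peak of either list lay in the domains of Ccl24 and Ccl26 (87.6 kb), Ccr8 (75.8 kb), Cxcl13 (30.6 kb), Ccr4 (23.8 kb), Cxcr2 (21.0 kb), Ccl12 (18.0 kb), Cxcl12 (9.2 kb) or Cxcl16 (3.0 kb). The domains of Cxcl12 and Cxcl16 barely entered the genes. At Cxcl12 the domain ran from 7.75 kb upstream to 1.45 kb downstream of the start and covered 11.3% of the gene. At Cxcl16 it ran from 2.91 kb upstream to 0.085 kb downstream and covered 1.43%, so that this call rests on less than 1 bin of 200 bp past the start. Of the 13 members in K27R only, Cxcl13 lay farthest from a residual peak, 2210 kb from the nearest K27M peak and 2212 kb from the nearest EZHIP peak.

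The clusters of tandem genes showed where members without a peak lay. On chromosome 5, the neutrophil-attracting ligands Cxcl5, Cxcl3, Cxcl15, Cxcl1 and Cxcl2 lay in no peak, and the nearest K27R peak was 127 kb from Cxcl2 and 139 kb from Cxcl1. On chromosome 11, Ccl5, Ccl9, Ccl6, Ccl3 and Ccl4 also lay in no peak. The nearest K27R peak was 33.3 kb from Ccl4 and 87.6 kb from Ccl5. Both clusters thus fell in gaps between K27R peaks.

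The cluster of monocyte- and eosinophil-attracting ligands on chromosome 11 was split. Ccl2, Ccl7, Ccl11 and Ccl8 lay in no peak, Ccl12 between them lay in a K27R peak of 18.0 kb, and Ccl1 lay in the 189.6 kb domain. The nearest K27R peak was 41.1 kb from Ccl2 and 8.29 kb from Ccl8. The receptor cluster on chromosome 9 was split as well. Ccr9 was marked at one end, and Cxcr6, Ccr1, Ccr3 and Ccr2 lay in no peak, with the nearest K27R peak between 5.08 kb (Ccr1) and 49.2 kb (Cxcr6) away. The peak nearest to Ccr1 held the start of Ccr1l1, a receptor-like neighbour outside the naming rule.

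**Figure D4:**
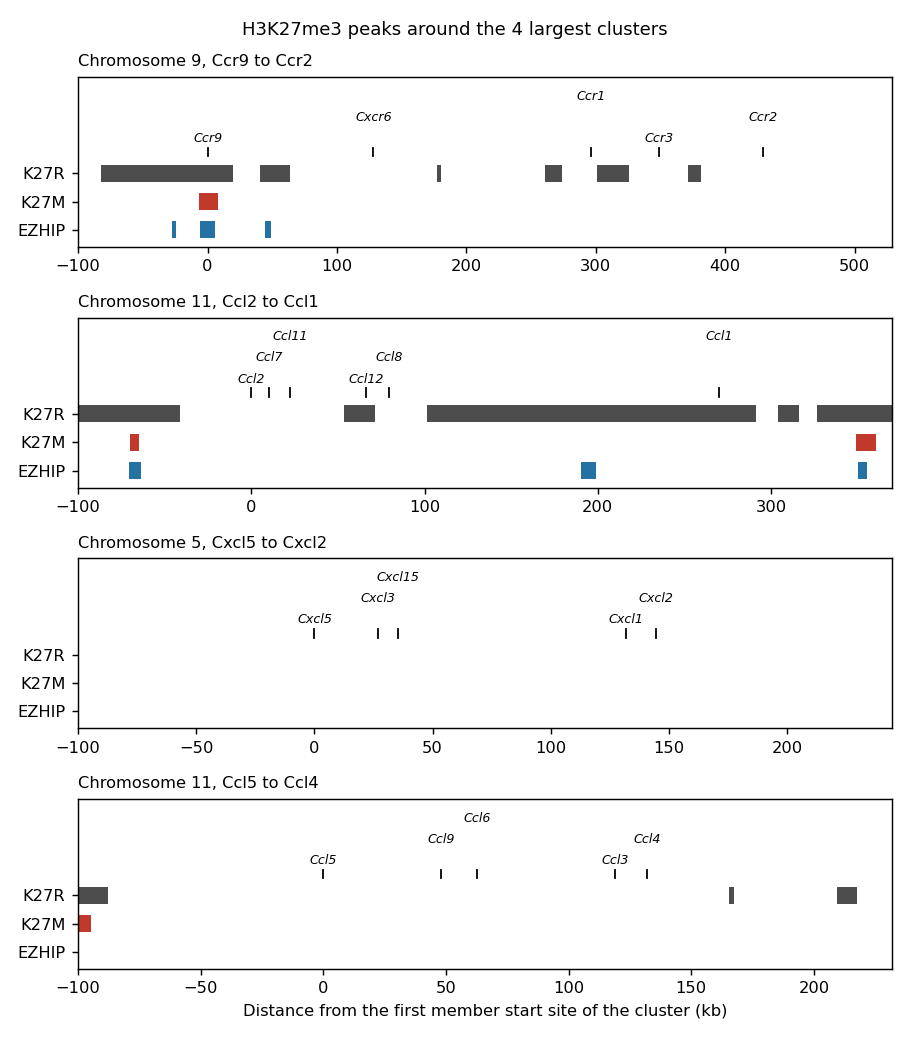
H3K27me3 peaks around the 4 largest clusters of members, drawn by distance from the first member start site (x axis, kb), with ticks at the start sites and bars for the peaks of each list, shown up to 100 kb beyond the outermost genes drawn. No peak of any list was drawn in the chromosome 5 window, and in the cluster from Ccl2 to Ccl1 only Ccl12 and Ccl1 lay under a K27R bar.

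Neighbouring members of the smaller clusters differed in some cases in their calls. Cxcr2 lay in a K27R peak of 21.0 kb that ended 20.8 kb from its paralog Cxcr1. Ccl22 was marked and Ccl17, the other ligand of Ccr4, was not, at 38.4 kb from the same domain. Ccl19 lay 2.89 kb outside the domain over Ccl21a and was the only member added to the K27R count when start sites within 5000 bp of a peak were counted. Cxcl10 lay 37.5 kb from a K27R peak, 37.3 kb from a K27M peak and 38.5 kb from an EZHIP peak, all at the same place. Ccr10 lay 66.4 kb from a peak over Ramp2 that was present in every list.

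Near-identical copies limit 4 of these calls. Ccl21a and Ccl21b shared 78.5% of their 50-base words, and Ccl27a and Ccl27b shared 55.2% and 49.0%. Ccl21a was called inside a domain of 188 kb and Ccl21b lay 64.6 kb from the nearest K27R peak. Reads from such sequence may be placed on either copy, so that the calls at these genes are uncertain. Both Ccl27 copies lay in no peak, 24.3 kb (Ccl27a) and 76.9 kb (Ccl27b) from the nearest K27R peak.

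The sequence at the start sites was a feature that the rule had not used. A CpG island lay over the start site of 5 of 51 members (9.80%), where 46.8% of all genes and 35.6% of the genes in K27R peaks had one. The 5 were both Ccl25 entries, which lay in no list, Cxcl12, which lay in K27R only, and Ccr9 and Cxcl14, which lay in all lists. Another 4 members had an island within 1 kb of the start. These were Cxcl16 in K27R only (0.215 kb away), Cxcr4 in all lists (0.367 kb), and Ccl27b (0.385 kb) and Ccl27a (0.448 kb) in no list. The median ratio of observed to expected CpG within 500 bp on either side of the start was 0.206 over the members, 0.559 over all genes and 0.423 over genes in K27R peaks. The Cyp genes were alike in island content (8.79%), and 40.5% of the Mmp and Adamts genes had an island.

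The kept members were mostly those with more CpG, with 1 exception. The ratio was 0.927 at Ccr9, 0.717 at Cxcl14, 0.625 at Cxcr4 and 0.161 at Ccr6. At Ccr9 the window also held the start of Slc6a20a, 0.446 kb away. The 13 members in K27R only had a median of 0.197 and a range of 0.109 to 0.782. The groups overlapped, since Cxcl12, at 0.782, was above all kept members but Ccr9 and had no residual peak, Cxcl16 stood at 0.607, and Ccr6 was below most members in K27R only. In the printed promoters the order differed at Cxcl12, whose 14 CG were fewer than those of Ccr9 (15), Cxcl14 (16) and Cxcr4 (19). Ccr6 had 3, as many as Ccr7 and more than Cxcl13 (1).

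Over all genes in K27R peaks, start sites with an island kept a K27M peak in 55.4% of cases and an EZHIP peak in 48.1%. Start sites without an island kept them in 18.5% and 17.1%. Among the members in K27R peaks, 2 of 3 with an island and 2 of 14 without one were kept. Those kept with an island were Cxcl14 and Ccr9, the latter at the start close to that of Slc6a20a. The part of CpG content in the share of members kept was not tested.

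Ccr6 stood apart in this respect too. Neither the K27M nor the EZHIP peak over its start contained a CpG island, and the nearest island lay 13.2 kb from its start. Among the 1458 genes kept in both lists, 9.12% had no island in the K27M peak and 10.3% had none in the EZHIP peak.

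**Figure D5:**
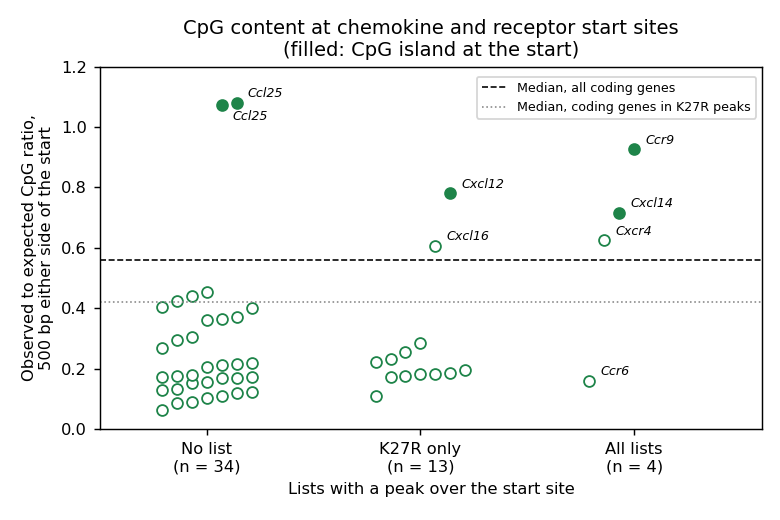
Ratio of observed to expected CpG in the window of 500 bp either side of the start site (y axis) for each member, grouped by the lists with a peak over the start (x axis). Filled points have a CpG island at the start, and the lines mark the median of all genes (0.559) and of genes in K27R peaks (0.423). Cxcl12 (0.782) and Cxcl16 (0.607) had high ratios in K27R only, and Ccr6 (0.161) had a low ratio in all lists.

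Other genes of the chemokine system, taken from a list of names, gave 12 entries outside the rule. Of these, 7 had a start site in K27R peaks (58.3%, interval 27.7 to 84.8%, against 28.2% of all genes). None did in K27M or EZHIP (interval up to 26.5%, against 8.94% and 7.96% of all genes). The 7 were Xcl1 (5.2 kb), Ccr1l1 (24.4 kb), Darc (73.2 kb), Cx3cr1 (75.8 kb), Cx3cl1 (84.0 kb), Ccrl2 (84.0 kb) and Ccbp2 (344 kb). Cx3cl1, or fractalkine, lay in the domain of Ccl22, and its receptor Cx3cr1 lay in that of Ccr8. No entry of this list had a CpG island at its start.

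Marker genes were looked up as a check of the fibroblast label. None of 12 fibroblast genes, among them Col1a1, Col1a2, Fn1 and Vim, lay in a peak of any list at its start, and the nearest K27R peak was 8.03 to 612 kb away. Among blood cell genes, Cd3e and Emr1 lay in K27R peaks at the start, and Cd3e lay in peaks of all 3 lists. Positions of a repressive mark check the label only as inside or outside a peak.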

How the data were processed

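H3K27me3 ChIP-Seq peak lists of 3 MEF lines (1 library each) were used. Per the submitters' processing notes, Bowtie 1.0.0 was used with the mm9 build, and deepTools is named. By the study's methods, spike-in chromatin was added and broad peaks were called with MOSAiCS-HMM. Whether scaling entered the calls is not given in the sources used here. The lists deposited by the authors hold chromosome, start and end, with no score, and every edge lay on a grid of 200 bp.

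Peaks were taken as whole bins and positions count from 1. Start sites came from GENCODE vM1. CpG islands were found in the NCBIM37 sequence (score 17 for CG and -1 for other bases, over 200 bp, at least 50% G+C, observed to expected ratio above 0.6), giving 25717 on the autosomes, with repeats not masked. Interval and island tools were tested on simulated data. Python 3.11.15, numpy 2.4.6, scipy 1.17.1, numba 0.67.0 and matplotlib 3.10.9 were used.

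Members, gene lists and roles were chosen with earlier results of these data known. Named members were those touching a K27M or EZHIP peak, those in K27R peaks, those with an island, and fixed examples without a peak. Ccl4, Ccl8, Ccl17, Ccr1, Ccr10, Cxcl2 and Cxcr1, and the distances given for them and for Ccl27b, were added after their values were seen. Some named items are not reported here. Alternatives were peak width, merging, distance to a peak, transcript starts, body share and island definition.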

Additional observations from a re-analysis of the deposited data

How the results depend on the processing

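Of 42 alternatives to 10 results, 38 kept counts within 1.5 times or medians within their interval. With at least 50% of the gene body required, 3 members in place of 5 were touched by EZHIP peaks. The median share of the gene body covered by K27R peaks was 0% over all members and 100% over those touched. With islands within 1000 bp of the start in place of over it, 9 members in place of 5 had an island, and 5 in place of 3 of these lay in K27R peaks. Under these definitions the cause follows from the wider or narrower criterion itself. Cxcl16 left the K27R count with peaks of at least 5000 bp. No paired analysis was possible because each line had 1 library and no test was run, and no library could be left out. Depth is unknown, so that a peak missed for want of reads cannot be told apart from one that was lost.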
